A study of Mus musculus with 98 samples.

Results

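The proteins of the cytosolic ribosome were followed through 3 mouse models of systemic inflammation, on 98 one-colour Affymetrix arrays. Their probe sets were found by symbol: those with a single gene symbol in the platform's gene table that starts with Rpl or Rps followed by a digit, or that is Rplp0, Rplp1, Rplp2 or Rpsa. Ribosomal protein S6 kinases and symbols marked as pseudogenes were dropped. This gave 48 of the 12393 genes with a single symbol, and 100 of the 22626 probe sets that are not controls: 39 probe sets of 20 large subunit genes, 50 of 20 small subunit genes (Rpsa among them), 2 of the stalk genes Rplp0 and Rplp2, and 9 of 6 paralogs. A gene had between 1 and 6 of these probe sets, and 23 genes had more than 1, so probe sets of 1 gene share a transcript and are no replicates. A further 102 probe sets carried a ribosomal protein symbol together with other symbols and were left out by the rule.

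Leukocytes from blood (64 arrays) and samples of spleen (34 arrays) of mice were measured. Titles carry a code, x or c, that the labels leave unexplained. In blood they also carry a letter, described in the labels as E for the insult and A for sham. The insult is a burn, trauma with hemorrhage, or an infusion of LPS (lipopolysaccharide, which comes from the outer membrane of bacteria). In burn blood there were 5 x E, 4 x A, 6 c E and 5 c A arrays. LPS blood held 5 x E, 5 x A, 6 c E and 6 c A arrays, and trauma-hemorrhage blood 6 x E, 5 x A, 6 c E and 5 c A arrays. All spleen titles carry E, with 6 x and 5 c arrays for burn, 6 x and 6 c for LPS, and 5 x and 6 c for trauma-hemorrhage. The burn spleen samples are described as spleen leukocytes and the other spleen samples as spleen. Strain, age, time after injury and pooling are not given in the labels. Whether each array stands for its own animal is not stated, so the p-values rest on the spread among arrays alone, part or all of which may be technical. No spleen title carries the sham letter A, and whether the c arrays are controls is not stated.

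A ribosome is built from a small subunit, which reads the messenger RNA, and a large subunit, which joins the amino acids. Each holds ribosomal RNA and one copy of most of its proteins, so their genes are expressed at matching and very high levels in nearly all cells. The stalk proteins reach out from the large subunit and recruit translation factors. Messenger RNAs of ribosomal proteins begin with a tract of pyrimidines (the TOP motif) through which growth signals adjust their translation, and in leukocytes their share of the messenger RNA is large in lymphocytes and small in mature neutrophils. In these bulk samples fewer cells of a type and less RNA per cell cannot be told apart.

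Values are log2 intensities after quantile normalization within a tissue, and a difference is x minus c with its standard error (SE) from limma, averaged over both letters in blood. A probe set passed at a Benjamini-Hochberg adjusted p under 0.05 over the 15838 probe sets tested in each comparison. Between 7 and 11 of the 100 ribosomal protein probe sets were too dim to be tested in a set, 83 were tested in all 6 sets, and 2 in 0 sets. The 6 sets were deposited with different lowest values (between 9.68 and 32.5), so levels are compared only within a set. No listed marker gene of neutrophils, B cells, T cells or platelets was at that floor on all arrays of a set. For the red pulp macrophage factor Spic, 1 probe set was at the floor on all blood arrays.

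Trauma-hemorrhage blood showed the broadest difference between the codes. Of 89 probe sets tested, 45 were higher and 4 lower in x arrays and 40 did not pass, with a median difference of 0.27. Over all probe sets 51.8% passed, 20.5% higher and 31.3% lower, and the median was -0.05. The higher calls thus made up 50.6% of the ribosomal protein probe sets and the lower calls 4.49%. They came from 29 of the 44 genes tested. In the small subunit 27 of 44 probe sets were higher and 3 lower (median 0.37), and in the large subunit 15 of 36 were higher and 1 lower (median 0.18). Neither stalk probe set passed, and 3 of 7 paralog probe sets were higher. Among the probe sets with a mean level of at least 10 log2, 28 of 47 ribosomal ones were higher and 3 lower, where 62.8% of all such probe sets passed, 28.6% higher and 34.2% lower. No ribosomal protein probe set separated all x from all c arrays there, which 3.66% of all probe sets did.

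**Figure D1:**
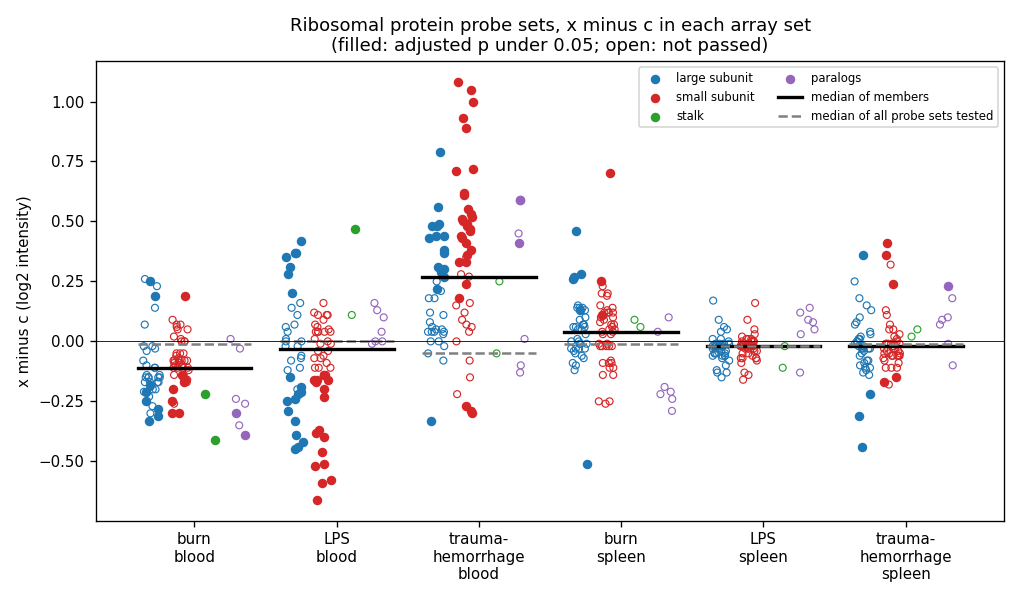
Each point is a ribosomal protein probe set and its height is x minus c in log2 intensity, by array set and by class; filled points passed at an adjusted p under 0.05. Black bars mark the median of the ribosomal protein probe sets (0.27 in trauma-hemorrhage blood, -0.11 in burn blood) and dashed grey bars the median of all probe sets tested.

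The largest differences were in proteins of the small subunit. Rps15 lies near the site where codons are read, and its probe set 1416089_at had a lowest, median and highest level of 9.51, 10.19 and 10.78 in x arrays, against 8.48, 9.10 and 9.95 in c arrays. All 11 x arrays lay above the c mean of their letter, although the ranges overlapped, and the difference was 1.08 ± 0.17 (SE; limma, adjusted p = 2.81e-05), a 2.12-fold higher level. Rps18, in the head of the small subunit, gave 9.73, 10.25 and 10.94 in x arrays with probe set 1435712_a_at, against 8.58, 9.10 and 10.41 in c arrays. Its difference was 1.05 ± 0.18 (SE; adjusted p = 6.95e-05), and a second probe set of Rps18, 1448739_x_at, differed by 0.93 ± 0.18. Rps19 is the gene most often mutated in human Diamond-Blackfan anemia, a failure of red cell production. Its levels were 7.64, 7.91 and 8.68 in x arrays, against 6.34, 7.04 and 7.85 in c arrays, a difference of 1.0 ± 0.14 (SE; adjusted p = 9.24e-06) with 11 of 11 x arrays above the c mean. The only Rps19 probe set was dim here, 0.39 log2 above the median value of this set. In burn blood it lay 4.22 above that set's median, so this difference is less secure as a measure of Rps19. Rps10, at the entry of the messenger RNA channel, had levels of 9.91, 10.47 and 11.15 in x arrays and 9.30, 9.55 and 10.24 in c arrays with probe set 1416719_a_at, a difference of 0.89 ± 0.14. In each of these genes the lowest x array was still below the highest c array.

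The promoters of genes at the extremes are shown for the 60 bases before and 10 bases after the annotated start, 5′ to 3′ on the gene's strand, from RefSeq on GRCm38.p6. Capitals mark CGGAAG or its reverse complement CTTCCG, the core letters that ETS-family factors such as GABP bind. Rps15, Rps18, Rps19 and Rps10 hold the 5 largest differences in trauma-hemorrhage blood, Rpsa and Rpl11 are described next, and Rps28 and Rplp0 were the lowest and the highest in LPS blood. They lie at chr10:80292371-80292440 on the plus strand (Rps15), chr17:33955656-33955725 on the minus strand (Rps18), chr7:24884532-24884601 on the plus strand (Rps19, the first of 3 listed promoters), chr17:27635235-27635304 on the minus strand (Rps10), chr9:120127706-120127775 on the plus strand (Rpsa), chr4:136053384-136053453 on the minus strand (Rpl11), chr17:33824553-33824622 on the minus strand (Rps28) and chr5:115559407-115559476 on the plus strand (Rplp0).
Rps15: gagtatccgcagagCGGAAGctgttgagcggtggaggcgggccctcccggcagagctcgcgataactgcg
Rps18: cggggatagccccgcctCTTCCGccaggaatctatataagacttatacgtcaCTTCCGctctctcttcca
Rps19: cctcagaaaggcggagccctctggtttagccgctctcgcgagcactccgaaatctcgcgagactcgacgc
Rps10: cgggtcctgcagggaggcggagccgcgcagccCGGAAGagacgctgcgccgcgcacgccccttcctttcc
Rpsa: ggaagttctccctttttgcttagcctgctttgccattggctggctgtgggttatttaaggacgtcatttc
Rpl11: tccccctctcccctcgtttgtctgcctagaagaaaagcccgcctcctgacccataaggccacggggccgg
Rps28: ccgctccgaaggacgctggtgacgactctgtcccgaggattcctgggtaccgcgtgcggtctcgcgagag
Rplp0: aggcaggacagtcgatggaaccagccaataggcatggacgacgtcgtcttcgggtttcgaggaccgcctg

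The table held 50 promoters of 42 of the 48 genes, each of 300 bases (250 before and 50 after the start). CGGAAG was present on either strand in 30 of them (60%), against 5537 of all 32851 promoters (16.9%). A C followed by at least 4 pyrimidines stood exactly at the annotated start in 8 of the 50 (16%), against 2.51% of all promoters; Rps18 and Rps10 have it, the other 6 genes printed do not. Of the genes shown that were higher in trauma-hemorrhage blood, Rps15, Rps18 and Rps10 have a match in the shorter printed window. Rps19, Rpsa, Rpl11 and Rps28 have 0 in that window. Over the 300 bases used for the shares, Rpsa has 3 matches, Rpl11 and Rps28 have 1 each, and the Rps19 promoter shown has 0. These are matches of letters and no measured binding.

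Other proteins with known roles beyond the ribosome also differed in trauma-hemorrhage blood. Rpsa, also known as a laminin receptor, had levels of 11.57, 12.01 and 12.54 in x arrays and 11.01, 11.26 and 11.74 in c arrays with probe set 1448245_at, 0.72 ± 0.11 higher (adjusted p = 2.15e-05). Rpl11, which can hold back the p53 inhibitor MDM2, had 9.38, 9.85 and 10.50 in x arrays and 8.58, 9.10 and 9.91 in c arrays, 0.79 ± 0.14 higher (adjusted p = 1.43e-04). In both, 11 of 11 x arrays lay above the c mean of their letter. The other probe set of Rpsa, a dim one, gave 0.09 and did not pass. Rps3 (0.46 ± 0.10), Rps26 (0.33 ± 0.12), Rpl22 (0.48 ± 0.16 with 1416603_at) and 4 of the 5 tested Rps24 probe sets (0.38 to 0.47) were also higher. Rplp0, the base of the stalk, reached 0.25 ± 0.11 (adjusted p = 0.0617), and Rpl38, Rplp2 and Rps6, the target of the S6 kinases, gave -0.08, -0.05 and -0.15 and did not pass.

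Paralogs and their parent genes were compared probe set by probe set. Rps27l, a paralog of Rps27 that p53 induces, was higher with 2 of 3 probe sets (0.59 each), while the 1 probe set of Rps27, a dim one, gave 0.04 ± 0.06. Rpl7l1, a paralog of Rpl7 that takes part in ribosome assembly, was 0.41 ± 0.07 higher with 1 of 2 probe sets, and Rpl7 was higher with 2 of 3 (0.27 and 0.30). Rpl22l1, the paralog of Rpl22, had 0.45 ± 0.19 and did not pass (adjusted p = 0.0537). Rpl3l, known from striated muscle, and Rpl39l, known from testis, were dim: Rpl3l did not pass in any blood set and Rpl39l was not tested there.

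The 4 lower calls in trauma-hemorrhage blood were Rpl37a with 1416218_x_at (-0.33 ± 0.08), Rps29 with 1438859_x_at (-0.30 ± 0.11), Rps4x with 1420303_x_at (-0.29 ± 0.05) and Rps9 with 1434624_x_at (-0.27 ± 0.07). For 3 of these genes another probe set was called higher: Rpl37a by 0.29 ± 0.11, Rps4x by 0.52 ± 0.09 and Rps9 by 0.71 ± 0.11. The direction of these 3 genes therefore depends on the probe set. Over the 22 genes with at least 2 tested probe sets, the median gap between the lowest and highest difference of a gene was 0.34. With the values as deposited 3 of the 4 lower calls had positive differences: 0.14 for Rpl37a, 0.03 for Rps29 and 0.20 for Rps9.

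Scaling changed the size of the trauma-hemorrhage result. With values as deposited 70 probe sets were higher and 1 lower (median 0.55), and with arrays centred on their median 71 and 1 (median 0.56). Of all calls 39.6% were higher with quantile normalization, 50.8% as deposited and 51.9% after median centring. The upper end of the deposited intensities, the level exceeded by 1% of an array's probe sets, lay between 2800 and 3830 in x arrays and between 2170 and 2890 in c arrays. The code also went with the beta-actin control, whose log2 ratio of 3′ to 5′ signal is a measure of RNA integrity. That ratio was 0.97 to 1.65 in x arrays and 1.79 to 2.28 in c arrays of trauma-hemorrhage blood, a difference of -0.58 with no overlap (two-sided exact permutation test over arrays, adjusted over 6 sets p = 8.51e-06). The GAPDH control ratio overlapped, at 2.45 to 3.04 in x arrays and 2.64 to 3.02 in c arrays. With the beta-actin ratio as a covariate 0 probe sets passed in either direction. Over all probe sets 0.152% were then higher and 0.0189% lower, so calls were lost in general. The median difference of the ribosomal proteins was then 0.46 and the median SE 0.24, against 0.11 without it, so ratio and code cannot be told apart here.

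**Figure D2:**
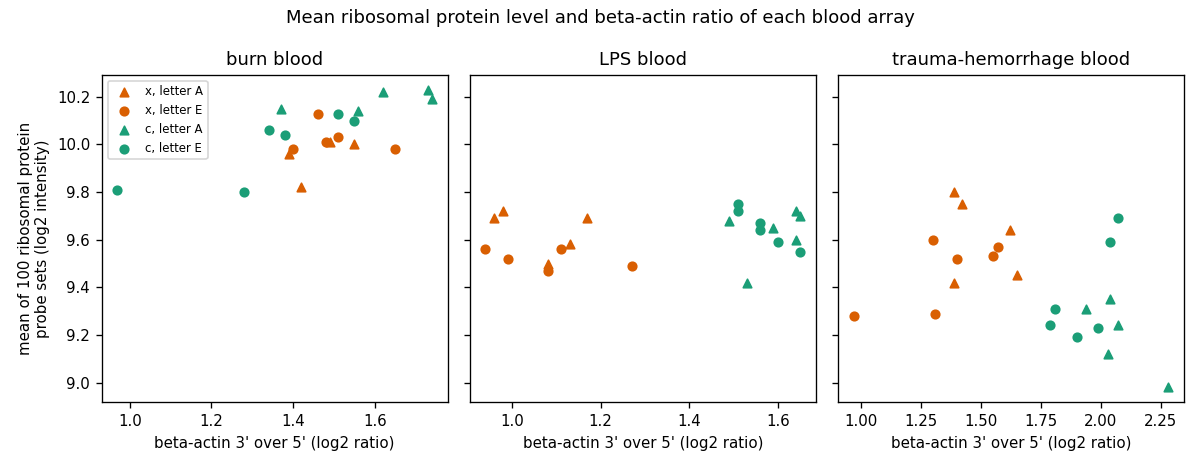
Each point is a blood array, with the log2 ratio of 3′ to 5′ beta-actin signal across and the mean log2 level of the 100 ribosomal protein probe sets up; colour gives the code and shape the letter. In trauma-hemorrhage and LPS blood the x arrays lie left of all c arrays, and in burn blood the codes overlap.

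The letters and cell type markers were read beside the trauma-hemorrhage result as well. With letter A alone 54 probe sets were higher and 2 lower (median 0.48), which is 60.7% higher where 16.3% of all probe sets were. With letter E alone 6 were higher and 2 lower (median 0.09), which is 6.82% higher where 9.21% of all probe sets were. The mean level of the 100 probe sets was 9.42 to 9.80 in x A arrays against 8.98 to 9.35 in c A arrays, and 9.28 to 9.60 in x E arrays against 9.19 to 9.69 in c E arrays. The difference between the letters itself was tested in 1 fit, which gave 0 ribosomal calls and 0 calls over all probe sets, so 0%. At an unadjusted p under 0.05 there were 28 of 89 probe sets, all with a smaller difference in letter E. At that threshold there were 1223 of all 15838 probe sets, 615 with a higher and 608 with a lower difference in letter E. Of 14 neutrophil marker probe sets 7 were higher and 2 lower in x arrays, with summed levels of 29100 to 77200 in x arrays and 14300 to 41000 in c arrays. Of 20 B cell probe sets 1 was higher and 7 lower (5410 to 10800 in x arrays, 7010 to 16100 in c arrays), a share near the 31.3% of all probe sets that were lower. The T cell list had 5 higher and 4 lower of 17 (5200 to 7650 in x arrays, 5710 to 6910 in c arrays). The NK cell list had 2 higher and 2 lower of 10. Of 10 erythroid probe sets 6 were lower. Their part in the ribosomal protein differences was not tested.

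In LPS blood the ribosomal proteins split. Of 90 probe sets tested 8 were higher and 28 lower in x arrays and 54 did not pass, with a median of -0.03. Over all probe sets 26.4% passed, 13.4% higher and 13.0% lower. At a mean level of at least 10 log2, 24 of 53 ribosomal ones were lower (45.3%) and 4 higher (7.55%). Other probe sets of that brightness were lower in 28.4% and higher in 22.2%. The small subunit had 16 lower and 0 higher calls among 45 probe sets, the large subunit 12 lower and 7 higher among 36. The lower calls came from 18 of the 44 genes tested, and Rplp0 was 1 of 6 genes with a higher call. The 7 paralog probe sets had 0 calls and differences from -0.01 to 0.16.

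Rps28, at the exit of the messenger RNA channel, was lower with all 3 of its probe sets. Probe set 1451101_a_at had levels of 10.86, 11.33 and 11.72 in x arrays, against 11.70, 12.02 and 12.16 in c arrays. The ranges met only at the edge, all 10 x arrays lay below the c mean of their letter, and the difference was -0.66 ± 0.08 (SE; limma, adjusted p = 5.26e-06). Rpsa with 1448245_at had 11.43, 11.67 and 12.03 in x arrays and 11.91, 12.29 and 12.62 in c arrays, a difference of -0.59 ± 0.09 (adjusted p = 3.38e-05). Rps15 with 1416088_a_at (-0.58 ± 0.09), Rps7, another MDM2 binder, with 1435593_x_at (-0.52 ± 0.10) and Rps18 with 1455572_x_at (-0.51 ± 0.10) followed. Here too probe sets of a gene were unequal: the other probe set of Rps15 gave -0.06 ± 0.08, that of Rps7 -0.07 ± 0.09, and Rps18 with 1448739_x_at 0.04 ± 0.09. That of Rpsa, a dim one, gave 0.11 and did not pass. Rpl7 was lower with 2 of 3 probe sets (-0.45 and -0.42), Rps24 with 4 of 5 (-0.14 to -0.20) and Rps26 by -0.23 ± 0.07.

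Rplp0 went the other way. Its levels were 10.89, 11.00 and 11.40 in x arrays and 10.15, 10.64 and 10.81 in c arrays, so that every x array lay above every c array. It was the only ribosomal protein probe set of the 90 to separate the codes in LPS blood, which 1.53% of all probe sets did, and the difference was 0.47 ± 0.07 (SE; limma, adjusted p = 5.02e-05). Rpl11 was 0.42 ± 0.09 higher, with 9.67, 9.89 and 10.24 in x arrays and 9.16, 9.50 and 9.81 in c arrays. Rpl41, the shortest ribosomal protein, was higher with 2 of 4 probe sets (0.37 each), Rpl27 with 1453096_x_at (0.35 ± 0.07) and Rpl38, whose loss shortens the tail in mice, by 0.28 ± 0.05. Rplp2, the other stalk member, gave 0.11 ± 0.06 and did not pass.

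The same control ratio differed in LPS blood, with 0.94 to 1.27 in x arrays and 1.49 to 1.65 in c arrays, a difference of -0.51 (two-sided exact permutation test, adjusted p = 8.51e-06). Once that ratio entered the fit 1 probe set was higher and 3 lower (1.11% and 3.33%, where 6.32% and 4.74% of all probe sets were), and the median SE was 0.23 in place of 0.07. The lower calls numbered 15 as deposited and 15 after median centring. They numbered 4 with letter A alone (4.44%, where 3.2% of all probe sets were lower) and 28 with letter E alone (31.1%, against 8.02% of all). The test between the letters gave 0 ribosomal calls, with 0% over all probe sets and 7 of 90 at an unadjusted p under 0.05. Such a p was found for 1135 of all 15838 probe sets. Of 14 neutrophil probe sets 12 were higher and 0 lower (17800 to 54300 in x arrays, 10600 to 40300 in c arrays), and of 9 platelet probe sets 5 were higher. Their part was not tested.

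**Figure D3:**
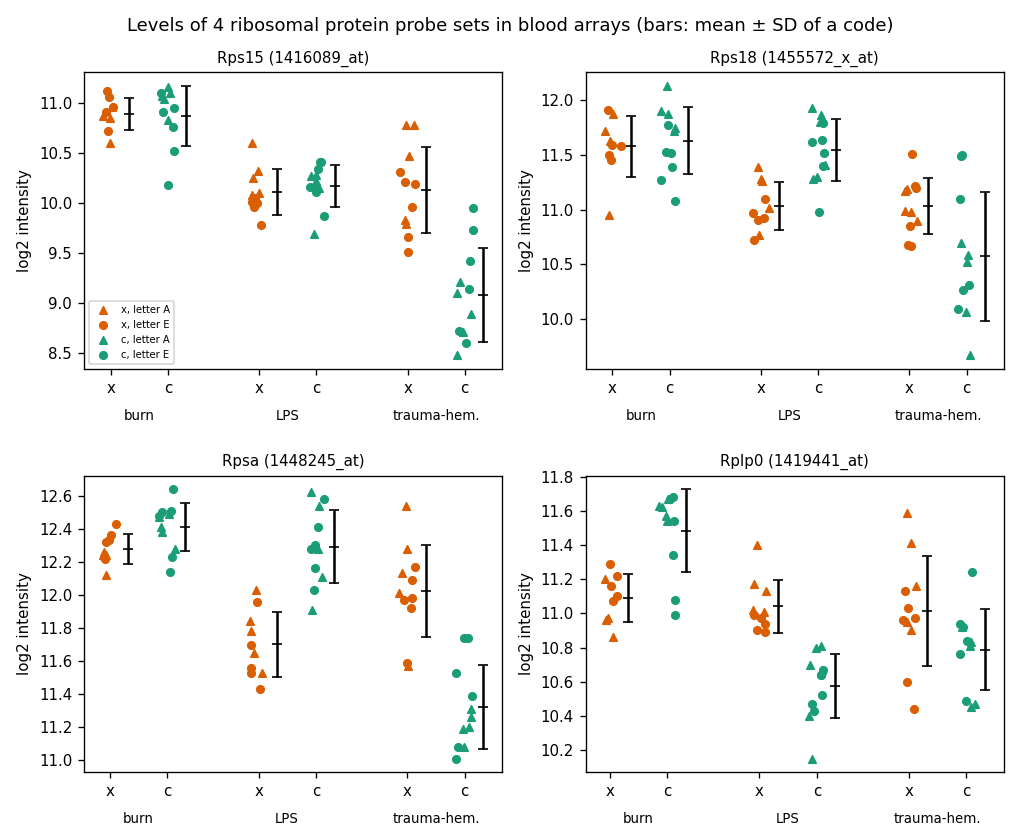
Log2 levels of 4 probe sets on every blood array, x left of c within each model, with triangles for letter A, circles for letter E and bars for the mean ± SD of a code. On average Rpsa and Rps18 lie lower in x than in c arrays in LPS blood and higher in trauma-hemorrhage blood, with overlap; levels of different models are not comparable.

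Burn blood had few and small differences, most of them lower. Of 93 probe sets 3 were higher and 17 lower in x arrays and 73 did not pass, with a median of -0.11. Over all probe sets 18.2% passed, 7.71% higher and 10.5% lower. The lower share among the ribosomal proteins was 18.3%, with 6 of 38 large subunit, 7 of 46 small subunit, both stalk and 2 of 7 paralog probe sets. At a mean level of at least 10 log2, 13 of 63 ribosomal ones were lower (20.6%) and 0 higher. Other probe sets of that brightness were lower in 18.8% and higher in 18.3%, so the lower shares were close there. Differences below 0 were found in 77 of the 93, beside 8449 of all 15838 probe sets.

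Rplp0 had the largest difference in burn blood. Its levels were 10.86, 11.10 and 11.29 in x arrays and 10.99, 11.57 and 11.68 in c arrays, a difference of -0.41 ± 0.08 (SE; limma, adjusted p = 0.00107), with all 9 x arrays below the c mean of their letter. Rps27l with 1450925_a_at (-0.39 ± 0.13), the same 2 Rpl41 probe sets that were higher in LPS blood (-0.33 ± 0.09 and -0.31 ± 0.09), Rps29 with 1415833_x_at (-0.30 ± 0.09) and Rpl7l1 with 1452049_at (-0.30 ± 0.06) were lower as well. Rplp2 (-0.22 ± 0.08), Rps3a1 (-0.25 ± 0.06), Rpl22 with 1448398_s_at (-0.25 ± 0.06) and Rps26 (-0.16 ± 0.06) also passed. The higher calls were dim probe sets: Rpl35 with 1454833_at (0.25 ± 0.05), Rpl12 (0.19 ± 0.06) and Rpsa with 1416196_at (0.19 ± 0.04). The bright Rpsa probe set 1448245_at gave -0.14 ± 0.06 (adjusted p = 0.0972).

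The burn count moved with single arrays. Arrays 4 and 5 of the c E group had the lowest means over the 100 probe sets among the c arrays, 9.80 and 9.81 beside 10.04 to 10.23 in the others, and the lowest beta-actin ratios, 1.28 and 0.97. Without this pair 53 probe sets were lower and 3 higher (median -0.18). Leaving out array 4 alone gave 28 lower calls and array 5 alone 32, and leaving out any 1 of 9 other arrays gave 9 to 11. With letter A alone 51 were lower (54.8%, where 11.6% of all probe sets were), and with letter E alone 0 were lower and 1 higher (0.928% and 1.72% of all). The test between the letters gave 0 ribosomal calls, with 0.0126% over all probe sets and 51 of 93 at an unadjusted p under 0.05. Such a p was found for 1900 of all 15838 probe sets. Beta-actin ratios did not differ between the codes past the threshold (1.39 to 1.65 in x arrays, 0.97 to 1.74 in c arrays; exact permutation test, adjusted p = 0.776). Of 23 B cell probe sets 15 were lower and 0 higher in x arrays, with sums of 10800 to 14000 in x arrays and 11300 to 26600 in c arrays, and of 14 neutrophil probe sets 8 were higher (24600 to 37500 in x arrays, 7490 to 60200 in c arrays). Of 10 NK cell probe sets 5 were lower here, against 1 in LPS and 2 in trauma-hemorrhage blood. Their part was not tested.

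The models were compared directly, as differences of x minus c in a fit of all blood arrays. Between trauma-hemorrhage and LPS blood 44 of 91 probe sets were more positive in trauma-hemorrhage and 6 more negative (median 0.34), where 47.5% of all probe sets passed, 20.7% more positive and 26.8% more negative. The small subunit accounted for 29 of the positive calls among 46 probe sets, the large subunit for 13 of 36. Rpsa with 1448245_at differed most, by 1.31 ± 0.13 (limma, adjusted p = 2.55e-12), and Rps18 with 1435712_a_at by 1.16 ± 0.19. The other, dim probe set of Rpsa had x minus c of 0.09 in trauma-hemorrhage blood and 0.11 in LPS blood. It passed in neither set, so the Rpsa result rests on its bright probe set. Rpl41 with 1455578_x_at (-0.42 ± 0.13) and Rpl38 (-0.37 ± 0.10) were the most negative. Between trauma-hemorrhage and burn blood 57 of 91 were more positive and 3 more negative (median 0.42; 43.3% of all probe sets, 19.7% and 23.6%), led by the Rps18 probe sets 1435712_a_at (1.34 ± 0.19) and 1448739_x_at (1.19 ± 0.19). Between burn and LPS blood 7 were more positive and 12 more negative of 91 (20.9% of all probe sets, 9.41% and 11.4%), from Rps28 with 1451101_a_at at 0.59 ± 0.14 to Rplp0 at -0.88 ± 0.13 (adjusted p = 5.59e-07). Those 3 differences use each model's arrays in 2 of the comparisons.

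**Figure D4:**
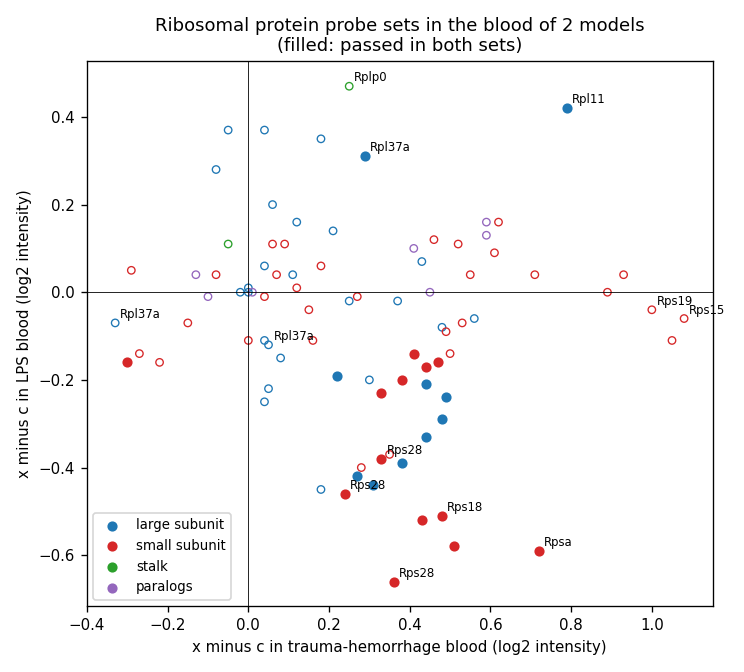
Each point is a ribosomal protein probe set tested in both sets, with x minus c in trauma-hemorrhage blood across and in LPS blood up, in log2 intensity; filled points passed in both. Most filled points lie at the lower right, higher in trauma-hemorrhage and lower in LPS blood (20 probe sets), while Rpl11 and 1 Rpl37a probe set lie at the upper right and 1 Rps29 probe set at the lower left.

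Set by set, 20 probe sets were higher in x arrays of trauma-hemorrhage blood and lower in x arrays of LPS blood. They were the 4 Rps24 probe sets, all 3 of Rps28, and 1 each of Rpsa, Rps15, Rps18, Rps7, Rps26, Rpl6, Rpl7, Rpl7a, Rpl10a, Rpl13a, Rpl19, Rpl27a and Rpl37. Over all probe sets 20.5% were higher in trauma-hemorrhage blood and 13.0% lower in LPS blood. How many of all probe sets had both calls was not counted, so the 20 have no share to be set against. The 2 ribosomal protein probe sets higher in both sets were those of Rpl11 and Rpl37a (1416217_a_at). Rps29 with 1438859_x_at was lower in both, by -0.30 ± 0.11 and -0.16 ± 0.05. A further 7 were higher in trauma-hemorrhage and lower in burn blood, and 3, of Rpl19, Rps20 and Rps26, were lower in both LPS and burn blood. Rplp0 was lower in burn blood and higher in LPS blood. Across the 88 probe sets tested in both, the trauma-hemorrhage and LPS differences had a Pearson correlation of -0.12, beside -0.00 over all 14804 probe sets. The arrays of these sets share no sample but were normalized together. Rpl13a, which in human monocytes leaves the ribosome to silence inflammatory messages, was among the 20 with its bright probe set 1455485_x_at. Its differences were 0.44 ± 0.11 in trauma-hemorrhage blood and -0.33 ± 0.06 in LPS blood.

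**Figure D5:**
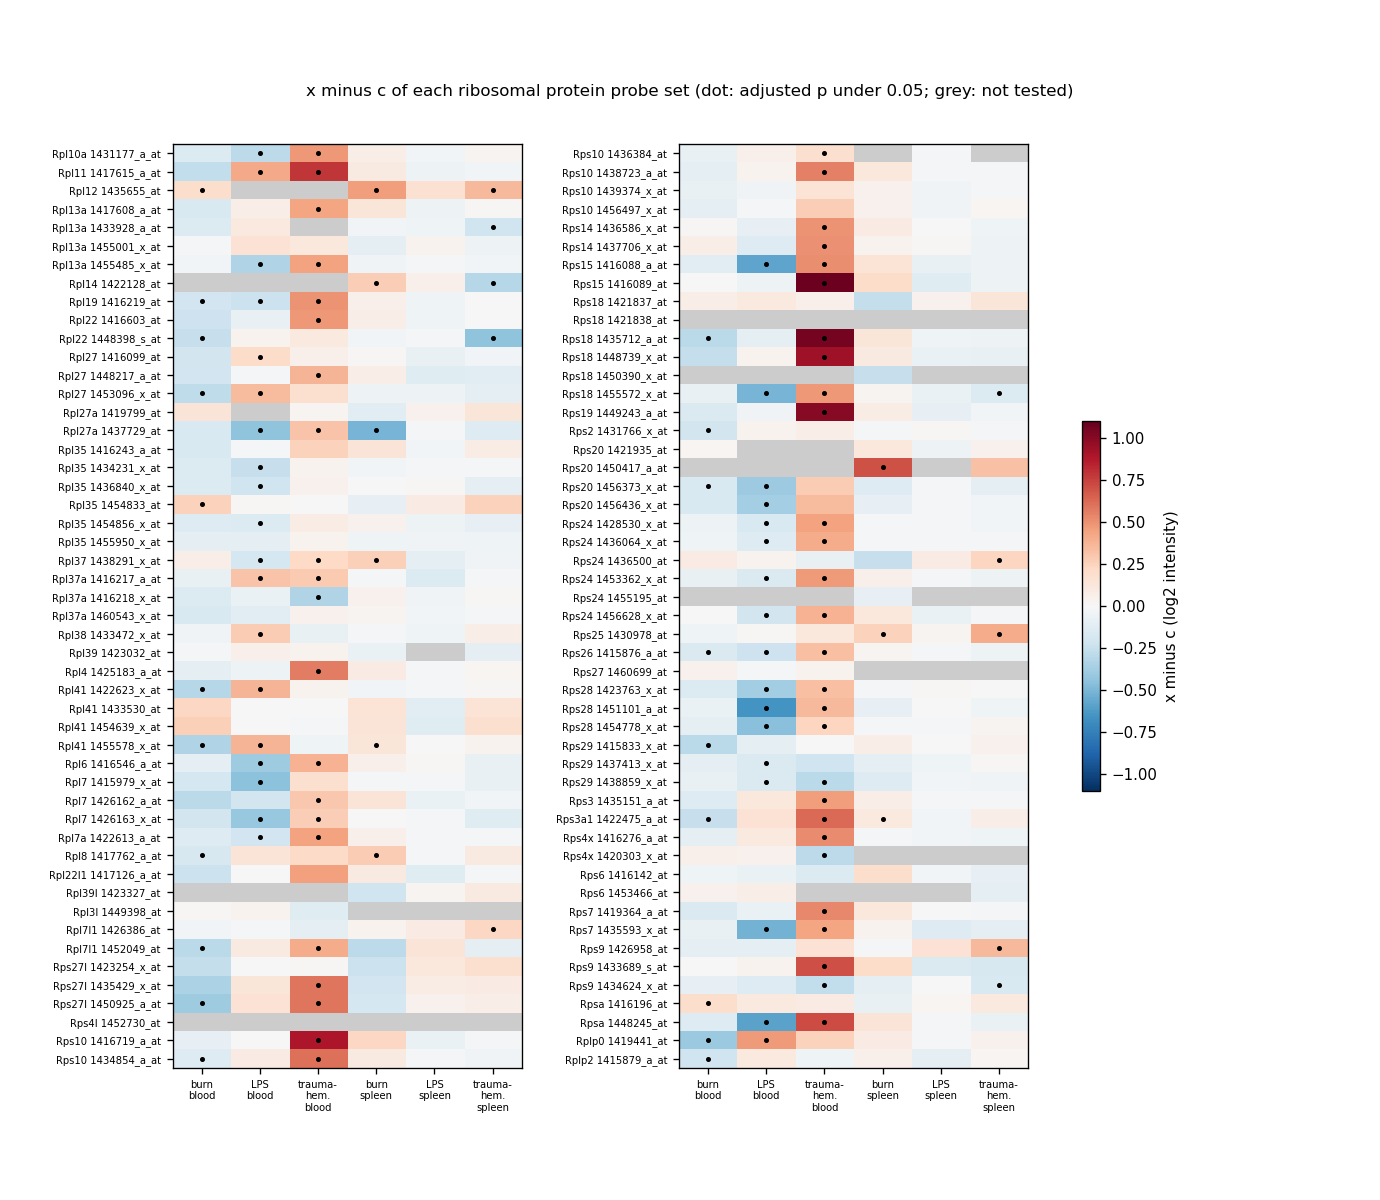
x minus c of each of the 100 probe sets (rows) in the 6 array sets (columns), in log2 intensity from blue (lower in x) to red (higher in x); dots mark an adjusted p under 0.05 and grey cells were not tested. The trauma-hemorrhage blood column holds most of the red cells and the LPS spleen column has no dots.

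In spleen the ribosomal proteins moved little. In burn spleen 8 of 93 probe sets were higher and 1 lower in x arrays (median 0.04), where 18.0% of all probe sets passed, 9.93% higher and 8.03% lower. Rps20, part of the small subunit head, led with its dim probe set 1450417_a_at. It had levels of 6.61, 6.88 and 7.08 (lowest, median, highest) in x arrays, against 6.14, 5.95, 6.01, 6.58 and 6.14 in c arrays, a difference of 0.70 ± 0.11 (limma, adjusted p = 2.98e-04) without overlap. It was the only 1 of 4 tested Rps20 probe sets to pass, and their lowest difference was -0.14. Rpl12, at the base of the stalk, had 7.48, 7.58 and 7.78 in x arrays against 7.05, 7.10, 7.09, 7.23 and 7.24 in c arrays, 0.46 ± 0.08 higher. Rpl8, close to the site of peptide bond formation, Rpl14 and Rpl37 were higher by 0.28, 0.27 and 0.26. Rpl27a with 1437729_at had 8.77, 9.36 and 9.53 in x arrays and 9.74, 9.32, 10.06, 9.83 and 9.85 in c arrays, a difference of -0.51 ± 0.14. In 4 of the 93 probe sets x and c did not overlap, beside 11.1% of all probe sets. After median centring 12 were higher, and the higher share of all calls was 66% in place of 55.3%. The T cell list had 9 of 20 probe sets higher (sums of 10900 to 13100 in x arrays, 5690 to 8740 in c arrays) and the monocyte and macrophage list 18 of 21 lower (8680 to 10400 in x arrays, 9930 to 15600 in c arrays); their part was not tested.

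In LPS spleen 0 of 90 probe sets passed, 0 also at an unadjusted p under 0.05, with differences from -0.16 to 0.17. Of all 15838 probe sets 3.45% passed, 2.59% higher and 0.859% lower, and 1731 had an unadjusted p under 0.05. Rplp0 gave -0.02 ± 0.09 and Rpsa with 1448245_at -0.01 ± 0.04 there. In trauma-hemorrhage spleen 5 of 92 were higher and 5 lower (median -0.02), where 27.3% of all probe sets passed, 10.9% higher and 16.5% lower. Rps25, which some viral messages need for translation, had 8.79, 9.10, 9.08, 9.36 and 9.12 in x arrays against 8.52, 8.68 and 8.87 (lowest, median, highest) in c arrays, 0.41 ± 0.10 higher (adjusted p = 0.00620). Rpl22, needed for T cell development in mice, had 7.72, 8.21, 7.90, 8.08 and 7.91 in x arrays with 1448398_s_at against 8.32, 8.35 and 8.53 in c arrays, a difference of -0.44 ± 0.09 (adjusted p = 0.00161) without overlap. Its bright probe set 1416603_at did not pass. Rpl12 (0.36 ± 0.09), Rps24 with the dim 1436500_at (0.24 ± 0.08) and Rpl7l1 with 1426386_at (0.23 ± 0.07) were higher. Rpl14 (-0.31 ± 0.10), Rpl13a with 1433928_a_at (-0.22 ± 0.08) and Rps18 with 1455572_x_at (-0.15 ± 0.05) were lower. Rps9 was called in both directions, 0.36 ± 0.08 with 1426958_at and -0.17 ± 0.05 with 1434624_x_at. In 4 of 92 probe sets the codes did not overlap, beside 17.1% of all.

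Rpl12 with 1435655_at, a dim probe set, was higher in 3 sets, burn blood and both burn and trauma-hemorrhage spleen, and was not tested in LPS or trauma-hemorrhage blood. In no other probe set did 3 calls share a direction. Of the 100 probe sets 23 were called in 0 sets, 38 in 1, 31 in 2 and 8 in 3, and 31 were called in both directions. The same counts were not made over all probe sets.

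Between the models, 1 of 93 probe sets was more positive in trauma-hemorrhage than in LPS spleen (Rps25, 0.38 ± 0.12; 12.1% of all probe sets passed, 4.62% more positive and 7.51% more negative). Rps20 with the dim 1450417_a_at alone (0.64 ± 0.20) and Rpl8 (0.30 ± 0.09) were more positive in burn than in LPS spleen (9.10% of all, 4.99% and 4.10%). Between trauma-hemorrhage and burn spleen 4 were more positive and 3 more negative (23.0% of all, 9.0% and 14.0%), from Rps24 with 1436500_at (0.49 ± 0.13) to Rpl14 (-0.59 ± 0.14). Blood was set against spleen with E arrays alone. In LPS 3 of 92 were more positive and 18 more negative in blood (7.03% of all, 3.06% and 3.98%), led by Rplp0 (0.40 ± 0.12) and Rps28 with 1451101_a_at (-0.81 ± 0.10, adjusted p = 1.16e-05). In trauma-hemorrhage 7 of 89 were more positive and 2 more negative in blood (24.1% of all, 12.8% and 11.3%), with Rps15 at 0.77 ± 0.26 and Rps9 at 0.71 ± 0.16 highest. In burn 0 of 91 passed by limma, 7 at an unadjusted p under 0.05. Of all 15838 probe sets 3.42% passed, 1.62% more positive and 1.80% more negative, and 2937 had an unadjusted p under 0.05.

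The letters, the contrast that the labels describe as injury or infusion against sham, gave no ribosomal calls. With E minus A averaged over the codes, 0 of 93 passed in burn blood, 0 of 90 in LPS blood and 0 of 89 in trauma-hemorrhage blood by limma, and 4, 8 and 4 had an unadjusted p under 0.05. Such an unadjusted p was found for 882, 828 and 1658 of all 15838 probe sets. Over all probe sets 0%, 0% and 0.0189% passed, the last split into 0.00631% higher and 0.0126% lower. The median differences of the ribosomal proteins were -0.06, -0.05 and 0.02. The unexplained code passed for 18.2%, 26.4% and 51.8% of all probe sets in the same order. Of 14 neutrophil probe sets 8, 12 and 7 were higher and 0, 0 and 2 lower in x arrays. As the letters gave almost no calls of any kind, the 0 ribosomal calls do not show that the insult left these genes unchanged.

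Genes around the ribosome were read beside its proteins. Fau, which encodes a small subunit protein fused to a ubiquitin-like domain and lies outside the symbol rule, differed by -0.25 ± 0.05 in LPS blood and by 0.25 ± 0.07 in trauma-hemorrhage blood (adjusted p = 7.65e-04 and 0.00472). Of the 102 probe sets with several symbols, 51 were higher and 7 lower of 88 tested in trauma-hemorrhage blood (20.5% and 31.3% of all). They had 9 higher and 40 lower of 92 in LPS blood (13.4% and 13.0% of all). In burn blood they had 1 higher and 21 lower of 94 (7.71% and 10.5% of all). Other TOP messages, for translation factors and their partners, had 13 higher and 3 lower of 31 probe sets in trauma-hemorrhage blood, where 20.5% and 31.3% of all probe sets were. The higher ones included the elongation factor Eef1a1 (0.66 ± 0.08), the nascent chain factor Naca (0.82 ± 0.11) and Hnrnpa1 (0.61 ± 0.10). They had 5 higher and 8 lower of 31 in LPS blood (13.4% and 13.0% of all), with Eef1b2 at -0.47 ± 0.08, and 2 higher and 10 lower of 31 in burn blood (7.71% and 10.5% of all), with Eif3h at -0.30 ± 0.07.

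Factors that assemble ribosomes did not follow the proteins in every set. In trauma-hemorrhage spleen 39 of 66 ribosome biogenesis probe sets were higher and 1 lower (median 0.27), where 10.9% and 16.5% of all probe sets were. They included Myc, which drives transcription of many of these genes (1.24 ± 0.11), the nucleolar GTPase Gnl3 (0.76 ± 0.06) and Wdr43, a factor of small subunit assembly (0.82 ± 0.09). In the same arrays the proteins of the ribosome had 5 calls in each direction, and the other TOP messages 0 higher and 11 lower of 32, with Nap1l1 at -0.82 ± 0.10. Cell type markers differed in these arrays too: 10 of 22 B cell probe sets were lower and 0 higher (34200 to 40700 in x arrays, 42100 to 49300 in c arrays), 9 of 20 T cell probe sets were lower and 0 higher (6550 to 8650 in x arrays, 7390 to 10100 in c arrays), and 6 of 14 neutrophil probe sets were higher and 0 lower (14100 to 21300 in x arrays, 7270 to 15000 in c arrays). Their part in these counts was not tested. In trauma-hemorrhage blood 20 of 50 biogenesis probe sets were higher and 11 lower (20.5% and 31.3% of all), led by nucleolin, Ncl (0.94 ± 0.11). LPS blood had 5 higher and 11 lower of 53 (13.4% and 13.0% of all), with Eif6, which keeps the subunits apart, at 0.41 ± 0.04 and the polymerase I factor Rrn3 at -0.41 ± 0.06. Burn blood had 1 higher and 10 lower of 57 (7.71% and 10.5% of all), with Nop10 at -0.36 ± 0.07. Burn spleen had 11 higher and 1 lower of 66 (9.93% and 8.03% of all), and LPS spleen 2 higher of 63, near the 2.59% of all, namely Myc (0.89 ± 0.14) and Gnl3 (0.26 ± 0.06).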

How the data were processed

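The deposited values were linear intensities, 1 per probe set and array. The program and scaling that the authors used are not given in the sources used here, labels included. The 64 control probe sets were used only as RNA integrity ratios. Each intensity was taken as log2(value + 16), quantile normalized within a tissue, and filtered on brightness: a probe set was kept if its mean over a set reached the 30th percentile. Every remaining probe set was tested on its own by limma (version 3.58.1; R version 4.3.3), with 1 term per group, contrasts between groups and an intensity trend in eBayes, two-sided, with Benjamini-Hochberg adjustment over all probe sets tested. Precision is limited by the number of arrays. The fit was tested on simulated data. No 2 arrays held identical values (0 pairs).

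The members, gene lists and comparisons were chosen with earlier results of these data known. Named genes were, per comparison of codes, the 5 largest differences in each direction that passed, and 2 elsewhere, together with fixed members, paralogs with their parents, genes whose probe sets were called in opposite directions, and the 3 list genes with the smallest p; others named were chosen after their values were seen. Summed marker levels are sums of linear intensities over a list. Alternatives were other pseudocounts, scalings and filters, 1 probe set per gene, array weights, a beta-actin covariate, single letters, larger fits, title-number runs as a block and leaving out each array; the test between letters and 2 other choices of members were added after seeing the data. The lists, and their sources of cells (B cell, T cell, NK cell, neutrophil, monocyte and macrophage, erythroid, platelet), were matched by single symbols.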

Additional observations from a re-analysis of the deposited data

Results flagged for a closer look

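Among 158 groups of arrays checked for a value far from the others, 7 had one, where chance gives about 1 in 20. In burn blood c A, array 5 was highest for both Rpl41 probe sets, at 10.62 with the others at 10.29 to 10.32 (1455578_x_at) and at 10.44 with the others at 10.10 to 10.18 (1422623_x_at). In LPS blood x E, array 3 was highest for Rps15 with 1416088_a_at, at 10.01 with the others at 9.62 to 9.68, and in c E array 5 was lowest, at 10.10 with the others at 10.45 to 10.62. For Rps28 with 1451101_a_at, array 6 of LPS blood c E was lowest, at 11.70 with the others at 12.02 to 12.16. In trauma-hemorrhage blood, array 2 of x E was lowest for Rps29 with 1438859_x_at (10.98, the others at 11.71 or above) and array 3 of c E lowest for Rps9 with 1434624_x_at (10.79, the others 11.08 to 11.20).

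Effects of the code that differed between models or tissues, by the test of the difference itself, were found for 50 ribosomal protein probe sets between trauma-hemorrhage and LPS blood, 60 between trauma-hemorrhage and burn blood and 19 between burn and LPS blood. Those are 54.9%, 65.9% and 20.9% of the ribosomal protein probe sets tested, beside 47.5%, 43.3% and 20.9% of all probe sets. In spleen the numbers were 1, 7 and 2 in the same order of pairs. Their shares of 1.08%, 7.53% and 2.15% were below the 12.1%, 23.0% and 9.10% of all probe sets. Between blood and spleen the numbers were 21 in LPS (22.8%, beside 7.03% of all) and 9 in trauma-hemorrhage (10.1%, beside 24.1% of all).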

How the results depend on the processing

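Counts are ribosomal protein probe sets higher and lower in x minus c, beside 3 and 17 in burn blood, 8 and 28 in LPS blood, 45 and 4 in trauma-hemorrhage blood, 8 and 1 in burn spleen, 0 and 0 in LPS spleen and 5 and 5 in trauma-hemorrhage spleen. Over all alternatives 629 counts stayed within 1.5 times and 95 moved further, and of the values of named probe sets 1341 kept direction and call, 131 lost the call and 7 changed sign; the cause was not tested except where the alternative removes probe sets or arrays. With arrays centred on their median, lower calls were 10 in burn blood, 15 in LPS blood and 2 in trauma-hemorrhage spleen, and trauma-hemorrhage blood had 71 and 1. Between sets the calls then were 0 more positive and 7 more negative for LPS blood minus spleen, 23 more positive for trauma-hemorrhage blood minus spleen, and 2 and 1 more negative for trauma-hemorrhage minus LPS in blood and spleen. As deposited the same results gave 10, 15, 2, 70 and 1, then 0 and 8, 25, and 2 and 2. In trauma-hemorrhage blood Rpl37a (1416218_x_at), Rps29 (1438859_x_at) and Rps9 (1434624_x_at) changed sign to 0.15, 0.04 and 0.21 after median centring and to 0.14, 0.03 and 0.20 as deposited; Rps29 had 0.17 with the beta-actin ratio as a covariate. That covariate gave 31 lower in burn blood, 1 and 3 in LPS blood, 0 and 0 in trauma-hemorrhage blood and 5 higher in burn spleen. With 1 probe set per gene, calls were 0 and 11 in burn blood, 5 and 16 in LPS blood, 21 and 2 in trauma-hemorrhage blood and 2 and 3 in trauma-hemorrhage spleen. Adding probe sets with several symbols gave 38 lower in burn blood, 17 and 68 in LPS blood, 96 and 11 in trauma-hemorrhage blood, 16 and 2 in burn spleen and 11 lower in trauma-hemorrhage spleen. Without _s_at and _x_at probe sets there were 10 lower in burn blood, 4 and 9 in LPS blood, 29 and 0 in trauma-hemorrhage blood and 2 lower in trauma-hemorrhage spleen. These 3 alternatives change how many probe sets are counted, so their counts do not compare directly with the main ones. In burn blood the lower share was 26.8% of 41 tested, 20.3% of 187 and 19.2% of 52, in that order, beside 18.3% of 93. Letter A alone gave 51 lower in burn blood, 4 lower in LPS blood and 2 lower in trauma-hemorrhage blood, and letter E alone 1 and 0, 3 higher, and 6 and 2. Array weights gave 45 lower in burn blood and 2 in burn spleen, and a fit of all groups of a tissue 7 and 2. A filter at the 50th percentile gave 1 higher in burn blood and 2 lower in burn spleen. Without a filter there were 0 lower in burn spleen, 0 more positive for LPS blood minus spleen, 1 more positive for burn minus LPS spleen, 1 more negative for trauma-hemorrhage minus LPS spleen and 5 more negative for trauma-hemorrhage minus burn blood. A pseudocount of 1 gave 1 more positive for burn minus LPS spleen, and quantiles within a set 2 more negative for trauma-hemorrhage minus LPS spleen. Without c E arrays 4 and 5 of burn blood, a pair chosen with earlier results of these data known, 53 were lower.

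Leaving out 1 array at a time gave 9 to 32 lower calls in burn blood, with 28 and 32 without c E arrays 4 and 5, 9 without c A 5, c E 3, x A 2 or x E 4, 10 without x E 1 or x E 2, and 11 without c A 3, c E 1 or x A 1. In burn spleen it gave 3 to 12 higher (3 without x 2, 4 without c 1 or x 4, 5 without c 3 or x 1) and 0 to 3 lower (0 without c 3, 3 without c 2, c 4 or x 6). In trauma-hemorrhage spleen it gave 2 to 7 lower (2 without c 2, 3 without c 4, c 5, c 6 or x 1), while trauma-hemorrhage blood kept 38 to 53 higher calls and LPS blood 21 to 29 lower. No paired analysis was possible because replicate numbers follow the order of deposit and so tie no arrays together across groups. Runs of title numbers span the groups, and with the run as a block burn blood had 3 and 13, LPS blood 8 and 26, trauma-hemorrhage blood 46 and 5 and LPS spleen 0 and 0. Cross-hybridization within this family, dim probe sets near the deposited floors and the absence of a stated scaling limit what single probe sets show.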

Other observations

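Some ribosomal protein probe sets stood at very different places in the separately deposited sets. Relative to the median log2 value of a set, the Rps18 probe set 1450390_x_at lay at 4.88 in burn spleen and at -1.66 to -1.22 in the other 5 sets. The Rpl39 probe set lay at 4.93 in burn spleen and 5.03 in trauma-hemorrhage spleen, but at -0.65 in LPS spleen and -0.40 to -0.31 in blood. Rps19 lay at 4.22 in burn blood and at 0.70 and 0.39 in LPS and trauma-hemorrhage blood, and Rps10 with 1434854_a_at at 4.88, 4.32 and 1.31. Of the 100 probe sets 9 spanned over 3 log2 between sets, and 41 spanned under 1.5. The labels give no account of how the sets were scaled.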
